A study of Macaca mulatta with 252 samples.

Results

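CARTPT, the gene for the precursor of cocaine- and amphetamine-regulated transcript peptides, was followed over 57 pieces of rhesus macaque brain. It was found by its symbol in the platform's annotation of probe sets to genes, where 1 of 52865 probe sets carried it alone, and it is 1 of the 14133 genes that could be named in this way. The study cut neocortex into layers, and hippocampus and lateral geniculate nucleus (LGN, the visual relay of the thalamus) into their divisions, and hybridised the RNA of each piece to an Affymetrix rhesus array, 1 array per piece and animal. Of the 57 groups, 54 had 4 arrays, and 3 had 3 arrays: those of layers 4 and 5 of A1 and of layer 2 of M1. The arrays came from 6 animals whose labels give sex but no treatment or age. The males are called A, B and C here, and the females D, E and F. The 10 cortical areas were V1, V2 and MT (middle temporal) of the visual cortex, TE of the temporal lobe, A1 (auditory), S1 (somatosensory), M1 (motor), DLPFC (dorsolateral prefrontal), OFC (orbitofrontal) and ACG (anterior cingulate). ACG, OFC and M1 had arrays of layers 2, 3, 5 and 6, and V1 had its layer 4 divided into 4A, 4B, 4Ca and 4Cb. Levels are given on the log2 scale, so that a step of 1 doubles the intensity, and ± marks the SD over animals for a level and the standard error for a fitted difference.

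The CART precursor enters the secretory pathway, where prohormone convertases such as PCSK1 and PCSK2 cut it into active peptides that are stored in dense-core granules and released with activity. The peptides are best known from the hypothalamus and the reward circuit, where they bear on feeding and on responses to psychostimulants. Transcription of the gene responds to cyclic AMP through CREB, and GPR160 has been proposed as a receptor. In the cortex CARTPT has served as a marker of upper layer neurons.

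CARTPT was chosen on its measured levels, high in layer 2 of the areas with layers 2 to 6 and high in TE, so both patterns are given as descriptions, with no test. Tests were run on the hippocampal fields, the LGN divisions, the sexes, layers 3 to 6, the areas other than TE, the layers of V1, and layer 2 of ACG, OFC, M1 and V1, whose layer 2 arrays were no part of the first contrast although the animals were the same. The means of A1, DLPFC, MT, S1 and V2, and that of the neocortex, hold layer 2 arrays of the choice, and the neocortical mean holds TE too. The test of layers 3 to 6 leaves out layer 2 but holds TE. A difference counts as called where the adjusted p lies under 0.05 and the size on the log2 scale reaches 1.

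Some markers peaked where the labels place them and others did not. CUX2, an upper layer transcription factor, averaged 9.58 in layer 2 and 9.82 in layer 3 of ACG against 4.84 in layer 5. SYT6 peaked in layer 6 of V1 (11.2), PROX1 of granule cells in the dentate gyrus (DG, 10.2), RGS14 in CA2 (9.81) and TCF7L2 of the thalamus in the LGN (12.7). RORB, the layer 4 marker, reached at most 6.89, in layer 4 of TE. FEZF2 of layer 5 (10.3) and FOXP2 of layer 6 (6.81) were highest in CA2, TBR1 of layer 6 in CA3 (11.9) and DRD2 of hilar neurons in layer 4 of V2 (6.55), and BCL11B of layer 5 reached at most 4.02, in layer 2 of V2. The spread of the hybridisation control probes split the regions into a narrow set (ACG, S1, A1, V1, TE and M1) and a wide set (the other regions). The labels tie no tissue array to an amplification batch, so whether these sets follow the batches is not known. Averaged by area, the poly-A controls read 9.99 in V1 and 9.83 in V2 and between 8.47 and 9.33 elsewhere, where single arrays ran from 7.57 to 10.4. Since each array holds a whole piece of tissue, fewer CARTPT cells and less CARTPT RNA per cell cannot be told apart.

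CARTPT spanned a wide range over the brain. Its mean over all arrays was 6.60, above the mean of 75.3% of all probe sets, and single arrays ran from 2.66 in layer 4 of V2 to 10.31 in layer 2 of TE. The group means ran from 9.44 ± 0.60 in layer 2 of TE to 3.46 ± 0.63 in layer 4 of V2. Of the 7 groups above 8, 4 were layer 2 pieces (TE, MT, V2 and A1), 2 were layer 3 pieces (TE and ACG) and 1 was the koniocellular LGN. The 7 groups below 5 all lay in V1 and V2, and 6 of them were below the median of all probe sets (4.76), where a level is close to the floor of the array, so no fold is given against them. The order is fine-grained: of 56 neighbouring pairs, only 2 differed by more than their pooled SD, the step down from layer 2 of V2 to layer 2 of A1 and the step from layer 4Ca of V1 to layer 4 of V2, and the ranges overlapped in all 56.

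**Figure D1:**
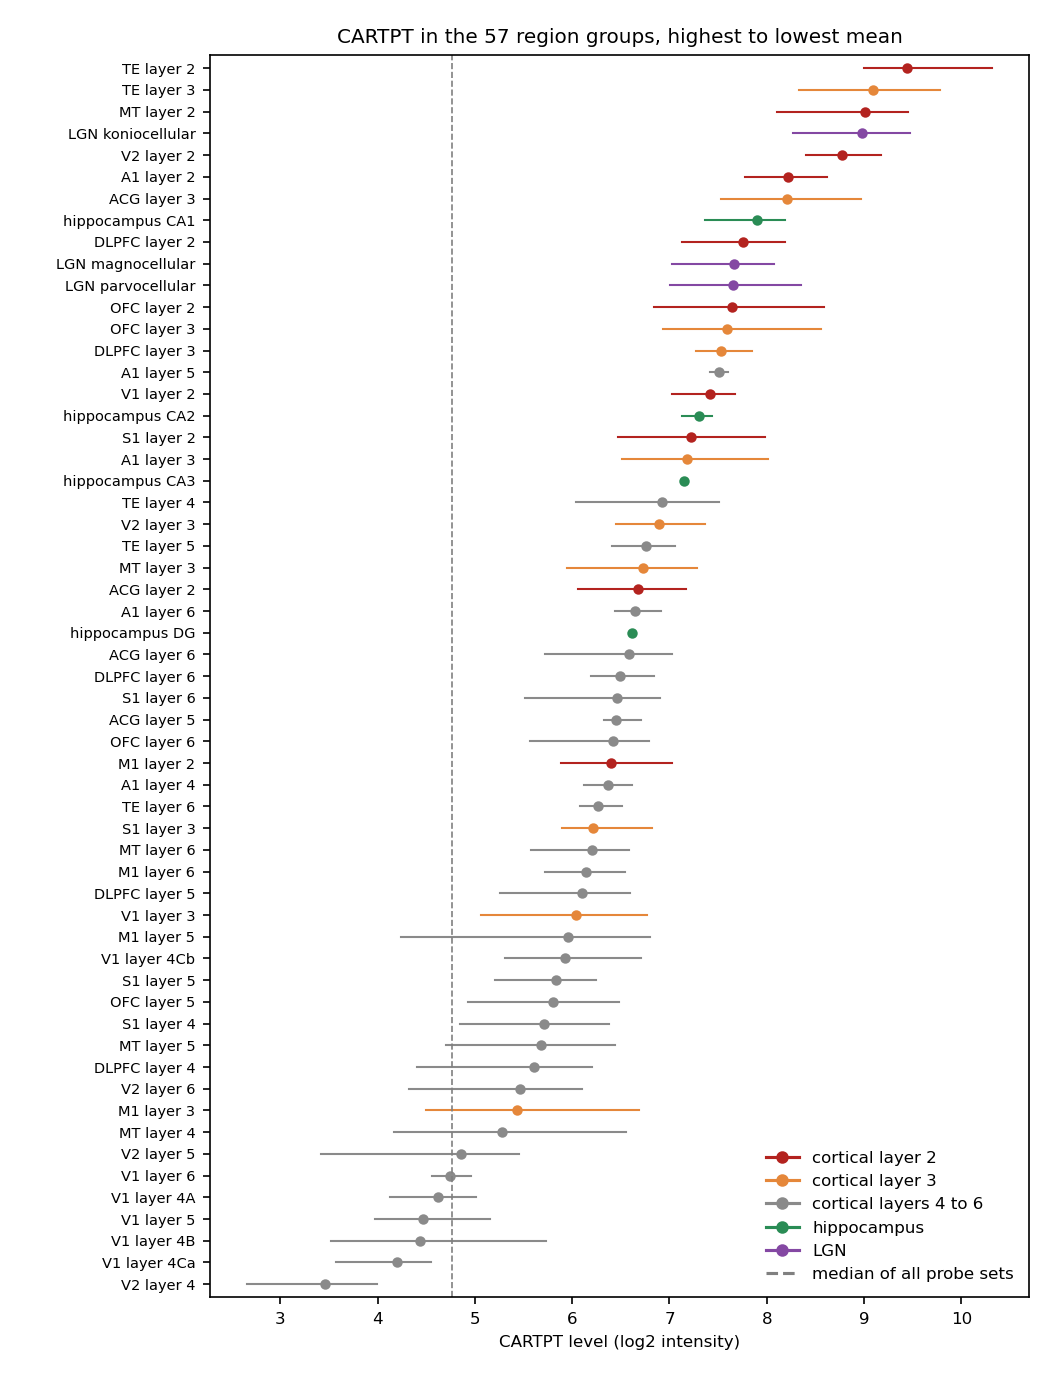
CARTPT in the 57 region groups, ordered by mean. The horizontal axis is the level (log2 intensity), points are group means, lines run from the lowest to the highest array, and the dashed line is the median of all probe sets (4.76). Layer 2 and layer 3 pieces and the LGN fill the upper part, and the lowest 7 groups are layers 4 to 6 of V1 and V2.

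Layer 2 of TE held the highest level of all groups. Its arrays read 9.29 in female D, 10.31 in female E, 9.15 in male A and 9.0 in male C. Layer 3 of TE was close behind, at 8.57, 9.67, 9.78 and 8.33 in the same animals, so that male A alone was higher in layer 3. The lower layers of TE averaged 6.92 ± 0.64 in layer 4, 6.76 ± 0.33 in layer 5 and 6.26 ± 0.18 in layer 6, and layer 2 stood 9.04-fold above layer 6. Over layers 2, 3, 5 and 6, TE exceeded the other areas by 1.26 ± 0.13, and 1 of 10286 genes exceeded them by more, while 0.0583% of genes were called higher. The gene was chosen for its level in TE, so this place among the genes is a description and no support.

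MT, V2 and A1 followed TE in layer 2 but, unlike TE, were already lower in layer 3 in 4 of 4 animals each. Layer 2 of MT read 9.45 in female F, 9.28 in female E, 9.19 in male A and 8.10 in male C, and layer 3 averaged 6.73 ± 0.60, lower than layer 2 by 2.27 ± 0.40 (SD). In V2, layer 2 (8.90, 9.18, 8.60 and 8.41 in females D and E and males A and C) and layer 4 (2.66, 4.00, 3.93 and 3.25 in the same order) lay at opposite ends of its range, and every array of layer 4 was below the median of all probe sets. Layer 4 of MT varied most of all groups, with 4.17 in female F and 4.18 in male A against 6.55 in female E and 6.21 in male C. In A1, layer 2 (8.19, 8.62, 7.77 and 8.27 in females D and E and males A and C) fell to 7.18 ± 0.62 in layer 3 and 6.36 ± 0.25 in layer 4. Layer 5 of A1 (7.41 in female D, 7.51 in female E and 7.60 in male C) lay above layer 4 by 1.14 ± 0.22 (SD) in 3 of 3 animals. In V2 the same step was 1.40 ± 1.38 (SD), upward in 3 of 4 animals.

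In DLPFC layers 2 and 3 overlapped. Layer 2 of DLPFC read 7.13 in female D, 8.16 in female E, 7.53 in male B and 8.18 in male C, and layer 3 read 7.36, 7.85, 7.64 and 7.28, with layer 2 higher in 2 animals and lower in 2. S1 was lower throughout, with layer 2 at 7.40, 7.05, 7.98 and 6.47 in females D and E and males A and C, and means of 6.22, 5.72, 5.84 and 6.46 in layers 3, 4, 5 and 6. Taken over the areas with layers 2 to 6, layer 2 exceeded the mean of layers 3 to 6 by 2.17 ± 0.17, and 18 of 10300 genes exceeded it by more. The gene was chosen for this contrast, so its place among the genes is a description and no support.

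**Figure D2:**
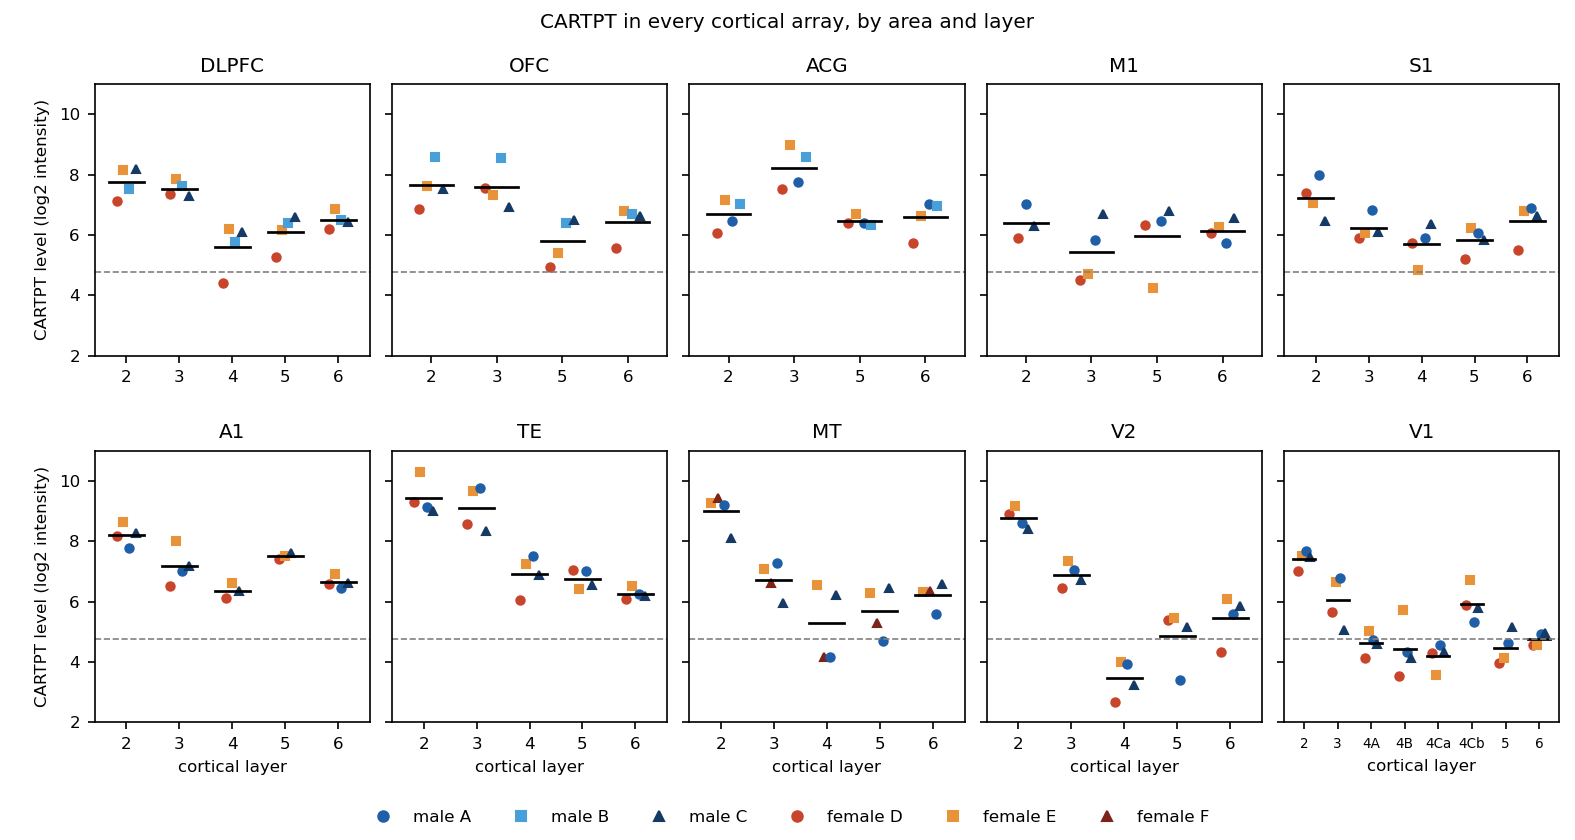
CARTPT in every cortical array. Each panel is an area, the horizontal axis is the layer, the vertical axis is the level (log2 intensity), each symbol is an animal, bars are means and the dashed line is the median of all probe sets (4.76). Layer 2 is highest in MT, V2, A1 and V1, layers 2 and 3 are level in TE, DLPFC and OFC, and ACG peaks in layer 3.

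The first tested question was whether CARTPT is also high in layer 2 of the areas that the layer contrast left out. In V1 it was. Layer 2 of V1 read 7.03 in female D, 7.5 in female E, 7.67 in male A and 7.48 in male C, against 6.04 ± 0.82 in layer 3, 4.47 ± 0.53 in layer 5 and 4.75 ± 0.22 in layer 6. The arrays of layer 2 lay above every array of the other layers. Layer 2 exceeded the mean of layers 3, 5 and 6 by 2.33 ± 0.26 (adjusted p = 8.47e-05, limma), in 4 of 4 animals. In this contrast 1.24% of all genes were called higher, and 14 of 10184 genes rose by more than CARTPT.

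OFC had a smaller excess that layer 3 shared. Layer 2 of OFC read 6.85 in female D, 7.61 in female E, 8.58 in male B and 7.53 in male C, and layer 3 read 7.56, 7.33, 8.56 and 6.93. Both layers stood above layer 5 (5.81 ± 0.77) and layer 6 (6.42 ± 0.57), and male B was highest in both. Layer 2 exceeded the mean of layers 3, 5 and 6 by 1.04 ± 0.24 (adjusted p = 0.00953, limma, 4 of 4 animals), beside 0.74% of genes called higher. The call was lost without male B (0.93, adjusted p = 0.0866) and without the animal block (adjusted p = 0.0811). Against layer 3 alone, a contrast added after the values were seen, the difference was 0.05 ± 0.29 (adjusted p = 0.959).

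In ACG the pattern was turned round, with CARTPT highest in layer 3. Layer 2 of ACG read 6.06 in female D, 7.17 in female E, 6.48 in male A and 7.01 in male B, and layer 3 read 7.53, 8.97, 7.75 and 8.59 in the same animals. Every array of layer 3 was above every array of layer 2, while layer 2 was level with layer 5 (6.45 ± 0.17) and layer 6 (6.58 ± 0.61). Layer 2 differed from the mean of layers 3, 5 and 6 by -0.40 ± 0.19 (adjusted p = 0.234, limma), below 0 in 4 of 4 animals. In the contrast added after the values were seen, layer 2 was 2.89-fold below layer 3 (-1.53 ± 0.24, adjusted p = 0.00298), where 0.651% of genes were called lower. CUX2, by contrast, was near its layer 3 level (9.82) in layer 2 of ACG (9.58), and FREM3, a matrix gene of layer 3 neurons, averaged 7.71 in layer 2 and 9.67 in layer 3. MBP of myelin read 8.49 in layer 2 and 10.2 in layer 3. The part of these markers in the CARTPT difference was not tested.

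M1 had no layer in which CARTPT stood out. Layer 2 of M1 read 5.88 in female D, 7.02 in male A and 6.28 in male C. Layer 3 read 4.5, 4.70, 5.85 and 6.69 in females D and E and males A and C, and layer 5 read 6.34, 4.24, 6.46 and 6.80. The poly-A controls of the layer 3 arrays read 10.2 and 10.1 in the females, whose CARTPT was low, and 8.78 and 8.76 in the males, and the arrays of the females had correlations of 0.973 and 0.959, over genes, with the averaged remaining arrays of their group, against 0.980 and 0.977 in the males. The part of these controls in the M1 values was not tested. The highest layer was layer 2 in 1 animal, layer 5 in 2 and layer 6 in 1. The layer 2 excess was 0.29 ± 0.31 (adjusted p = 0.627, limma, above 0 in 2 of 3 animals), where 1.5% of genes were called higher.

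Counted over all 40 pairs of an animal and an area, the highest layer was layer 2 in 28, layer 3 in 8, layer 5 in 2 and layer 6 in 2. Layer 3 was highest in 4 of 4 animals in ACG, in 2 of 4 in DLPFC and in 1 of 4 in each of OFC and TE. The pairs of female E in M1 and of male A in A1 rest on 3 layers each.

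The size of the layer 2 excess, layer 2 minus the mean of layers 3, 5 and 6, varied among the areas. In V2 it was 3.51 in female D, 2.87 in female E, 3.24 in male A and 2.50 in male C, and in MT it averaged 2.80 ± 0.74 (SD). In DLPFC, S1 and A1 it averaged 1.05 ± 0.33, 1.05 ± 0.70 and 1.21 ± 0.12 (SD). The layer 2 values of these areas were used to choose the gene, so they are a description and their differences from the other areas have no test.

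Among ACG, OFC, M1 and V1, which gave no layer 2 values to the choice, the excess was compared in a fit added after the values were seen. It differed among them with a range of 2.88 between fitted means (adjusted p = 0.000646, moderated F of limma), where 1.8% of genes were called. V1 was above the other areas by 2.07 ± 0.19 (adjusted p = 0.000284, limma, 4 of 4 animals, beside 0.359% of genes called higher). ACG was below them (-1.77 ± 0.19, adjusted p = 0.00224, 4 of 4 animals, beside 0.204% called lower), a call that was lost without female D (-1.83, adjusted p = 0.0761). M1 (-0.59 ± 0.22, adjusted p = 0.33) and OFC (0.29 ± 0.19, adjusted p = 0.481) were not called. Without OFC, which alone of the 4 lies in the wide control set, ACG (-1.89 ± 0.27, adjusted p = 0.0446) and V1 (2.44 ± 0.24, adjusted p = 0.00925) were called too.

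**Figure D3:**
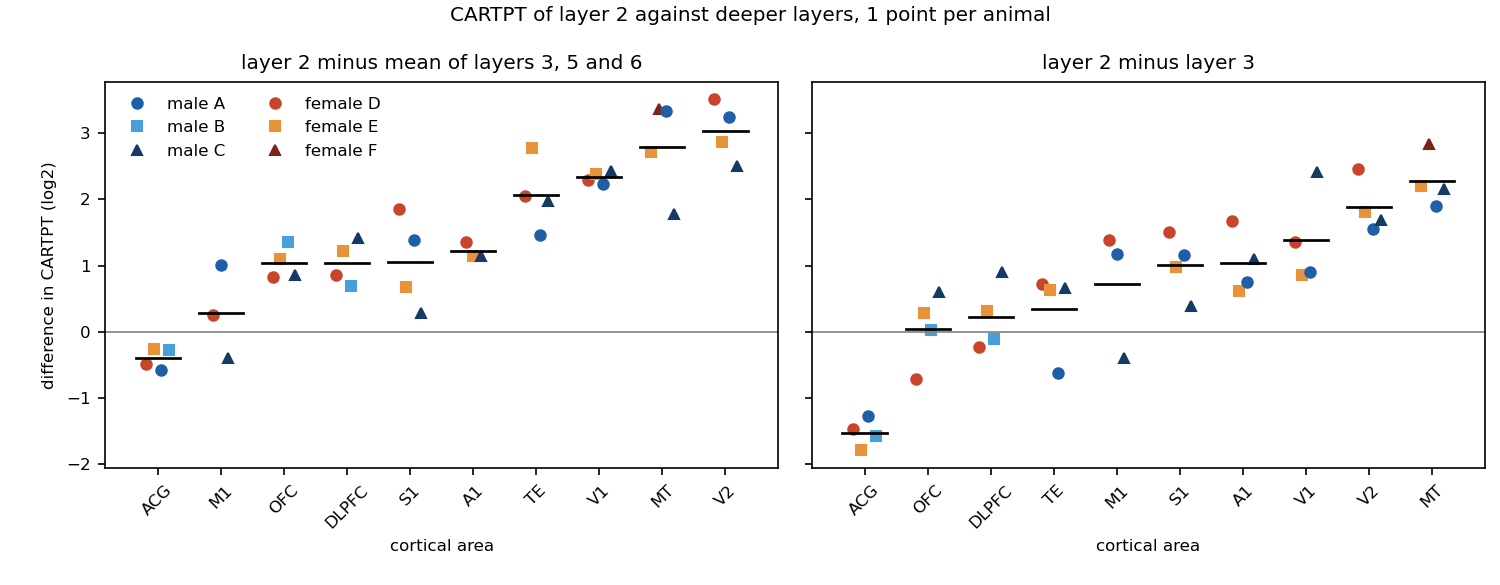
CARTPT of layer 2 against deeper layers, by area, with 1 symbol per animal and bars for means. The vertical axis is a difference on the log2 scale, on the left layer 2 minus the mean of layers 3, 5 and 6 and on the right layer 2 minus layer 3. All 4 animals lie below 0 in ACG in both panels, and all animals lie above 0 in MT, V1, V2, S1 and A1.

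Below layer 2, CARTPT fell from layer 3 to layer 4, with no further step called. Over the areas with layers 2 to 6 (layer 2 left out of the values), layer 3 exceeded layer 4 by 1.78 ± 0.20 (adjusted p = 1.4e-05, limma; adjusted p = 2.56e-05 for layers 3 to 6 together, where 3.86% of genes were called), in 4 of 4 animals, where 0.553% of genes were called higher and 10 of 10300 had a larger difference. TE, for which the gene was chosen, is among these areas, with 9.09 in layer 3 and 6.92 in layer 4. Layers 3 and 4 averaged 7.53 and 5.61 in DLPFC, 6.73 and 5.28 in MT and 6.89 and 3.46 in V2. In A1 they averaged 7.18 and 6.36, and in S1 6.22 and 5.72. Layer 4 minus layer 5 was -0.48 ± 0.20 (adjusted p = 0.12) and layer 5 minus layer 6 was -0.18 ± 0.20 (adjusted p = 0.58), neither called. Of the 40 pairs of an animal and an area, layer 4 was the lowest in 14, layer 4B of V1 in 3, layer 4Ca in 1 and layer 5 in 13. The counts of layers 4 and 5 do not share a base, since layer 5 was sampled in every area. An undivided layer 4 was sampled in DLPFC, MT, S1, TE and V2 (4 animals each) and in A1 (3 animals) only. The SD between area means was 1.00 in layer 2, 1.079 in layer 3, 0.87 in layer 5 and 0.59 in layer 6 over 10 areas, and 1.19 in layer 4 over 6 areas. In layer 3 the means ran from 5.43 in M1 to 9.09 in TE, and in layer 6 from 4.75 in V1 to 6.64 in A1.

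V1 had the lowest CARTPT of the areas other than TE. Averaged over layers 2, 3, 5 and 6, V1 stood at 5.67 ± 0.28 (SD) and the other areas between 6.18 and 7.45. The areas differed (range 1.81, adjusted p = 5.51e-07, moderated F of limma), where 8.91% of genes were called. The means of A1, DLPFC, MT, S1 and V2 hold layer 2 arrays used to choose the gene. The p-values of comparisons with these means are therefore not free of the choice. V1 was below the others (-1.0796 ± 0.12, adjusted p = 1.49e-07) in 4 of 4 animals, beside 1.06% of genes called lower, and without female E the difference was -0.99 (adjusted p = 5.11e-05), under the size threshold. Without layer 2, an alternative added after the values were seen, it was -1.35 ± 0.13 (adjusted p = 5.71e-09). The poly-A controls had their highest area mean in V1 (9.99), and their part in the difference was not tested. In V2, whose poly-A controls read 9.83, CARTPT differed from the other areas by -0.15 ± 0.12 (adjusted p = 0.353, limma). The V2 mean holds layer 2 (8.77), which was used to choose the gene, beside low levels in layer 5 (4.86) and layer 6 (5.47).

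A1 was the highest of the 9 areas, at 7.45 ± 0.30 (SD, 3 animals). It exceeded the others by 0.95 ± 0.14, just short of the size threshold, which 0.185% of genes passed as higher. The difference was 1.21 ± 0.13 within the narrow set and 1.03 without male C. The A1 mean holds layer 2 (8.22), which was used to choose the gene, so these differences are given without a test. Layers 3, 5 and 6 of A1 averaged 7.18, 7.50 and 6.64. In V1 the difference within the narrow set was -1.11 ± 0.12 (adjusted p = 5.29e-06). None of ACG (0.29), DLPFC (0.28), M1 (-0.40), MT (0.15), OFC (0.17), S1 (-0.22) or V2 was called. Within the wide set the areas had a range of 0.30 (adjusted p = 0.469).

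Within V1 CARTPT formed a high upper step, a floor and a rise in layer 4Cb. The divisions differed (range 3.22, adjusted p = 4.65e-07, moderated F of limma; 14.7% of genes called). Layer 2 exceeded the mean of the other 7 divisions by 2.50 ± 0.27 (adjusted p = 1.96e-07, limma; 1.74% of genes called higher). It exceeded layer 3 by 1.38 ± 0.36 (adjusted p = 0.0357; 0.569% called higher), a call that was lost without female D, male A or male C (adjusted p between 0.092 and 0.355) and without the animal block (adjusted p = 0.0616). Layers 4A (4.62 ± 0.37), 4B (4.43 ± 0.93) and 4Ca (4.20 ± 0.43) lay below the median of all probe sets, and neither step between them was called.

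Layer 4Cb, the division that receives parvocellular input, rose above its neighbours on both sides. Its arrays read 5.88 in female D, 6.71 in female E, 5.31 in male A and 5.80 in male C. Layer 4Ca, the division that receives magnocellular input, read 4.31, 3.58, 4.55 and 4.35, and layer 5 read 3.97, 4.13, 4.62 and 5.16 in the same animals. The 4 arrays of layer 4Cb were above all arrays of layers 4Ca and 5. Layer 4Ca minus 4Cb was -1.73 ± 0.36 (adjusted p = 0.00831, 1.23% of genes called lower), and layer 4Cb minus layer 5 was 1.46 ± 0.36 (adjusted p = 0.0139, 1.72% called higher). Without female D (adjusted p = 0.0722 and 0.154) or female E (adjusted p = 0.0798 and 0.0828) neither was called.

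Markers of several cell types differed between layer 4Cb and its neighbours. FEZF2, a transcription factor of layer 5 neurons, averaged 3.93 in 4Ca, 7.07 in 4Cb and 8.36 in layer 5, and NEUROD6 of excitatory neurons averaged 4.87, 7.83 and 8.55. The 3 layer 5 markers together averaged 4.43, 6.33 and 7.30. CARTPT itself was lower in layer 5 than in 4Cb. Other markers were also highest in 4Cb among these layers. RORB of layer 4 neurons averaged 6.009, 6.496 and 5.294 in 4Ca, 4Cb and layer 5. The 6 inhibitory neuron markers together averaged 8.066, 8.304 and 7.949, and the 3 astrocyte markers 9.163, 9.527 and 9.329. The part of these cells in the CARTPT difference was not tested.

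In the hippocampus CARTPT was highest in CA1, lower in CA2 and CA3 and lowest in the dentate gyrus. CA1 read 8.0 in female D, 7.36 in female E, 8.19 in male A and 8.06 in male C. CA2 read 7.42, 7.22, 7.43 and 7.13, CA3 read 7.17, 7.19, 7.12 and 7.12, and DG read 6.65, 6.63, 6.59 and 6.59 in the same animals. The arrays of DG lay below every array of the other fields, and female E had the lowest CA1. The fields differed (range 1.29, adjusted p = 9.35e-06, moderated F of limma), where 19.1% of genes were called.

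CA1 exceeded DG by 1.29 ± 0.13 (adjusted p = 1.77e-06), a 2.44-fold difference in 4 of 4 animals, and 4.82% of genes were called higher in CA1. The smaller steps passed the adjusted p but not the size threshold. CA1 minus CA2 was 0.60 ± 0.13 (adjusted p = 0.00473, beside 19.6% of genes under 0.05) and CA3 minus DG was 0.54 ± 0.13 (adjusted p = 0.00343, beside 51.4%). CA2 and CA3 were not told apart (0.15 ± 0.13, adjusted p = 0.555). Over 9 repeat runs of 1 CA3 RNA, CARTPT ran from 6.36 to 7.38. That span holds the means of DG (6.62), CA3 (7.15) and CA2 (7.30), which limits the reading of the smaller steps. CA1 against the mean of the other fields came to 0.88 ± 0.11, or 1.06 without female E, which is past the threshold. The 2 excitatory neuron markers together averaged 9.60 in CA1, 9.60 in CA2, 10.0 in CA3 and 6.58 in DG, and the 3 astrocyte markers 9.18, 9.47, 9.50 and 10.3. Their part in the CARTPT order was not tested.

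GPR160, the proposed receptor, was near the floor in nearly all groups. Its group means lay between 3.18 and 4.53, below the median of all probe sets, so it was outside the genes tested. The highest group was DG, the hippocampal field with the least CARTPT, where it read 3.99 in female D, 5.09 in female E, 4.36 in male A and 4.66 in male C, against 3.10 to 3.68 over the other fields. These values were looked at after the others were seen, and the difference has no test.

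The LGN held the highest CARTPT outside the neocortex. The koniocellular layers, thin layers of small relay neurons between the main ones, read 9.47 in female D, 9.44 in female E, 8.27 in male A and 8.71 in male C. The magnocellular layers, of large neurons, read 7.03, 7.95, 7.60 and 8.08, and the parvocellular layers, of small neurons that carry colour and detail, read 7.77, 7.5, 7.01 and 8.35. Every koniocellular array was above every magnocellular array, and male A's koniocellular array fell below male C's parvocellular one.

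The divisions differed (range 1.32, adjusted p = 0.0165, moderated F of limma), where 0.395% of genes were called. The koniocellular layers exceeded the magnocellular by 1.31 ± 0.26 (adjusted p = 0.0199, limma) and the parvocellular by 1.32 ± 0.26 (adjusted p = 0.0222), 2.48-fold and 2.49-fold, each in 4 of 4 animals. Few genes behaved so: 0.135% of 10379 genes were called higher against the magnocellular and 0.0867% against the parvocellular layers, and 6 and 4 genes had larger differences. Magnocellular and parvocellular layers were not told apart (0.01 ± 0.26, adjusted p = 0.996). The difference among the divisions was no longer called without the animal block (adjusted p = 0.145) or without female E (range 1.25, adjusted p = 0.165). The difference from the magnocellular layers was also lost without female D (0.93), and that from the parvocellular layers without male A (adjusted p = 0.058).

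Glial and vessel markers were slightly higher in the koniocellular arrays too. The 4 microglial markers averaged 7.08 there, 6.76 in the magnocellular and 6.80 in the parvocellular arrays, MBP 12.9, 12.5 and 12.5, the 3 endothelial markers 6.22, 6.00 and 6.02, and the 3 astrocyte markers 9.65, 9.43 and 9.13. TCF7L2 of relay neurons was level (12.7 in each). The part of these cells in the CARTPT difference was not tested.

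**Figure D4:**
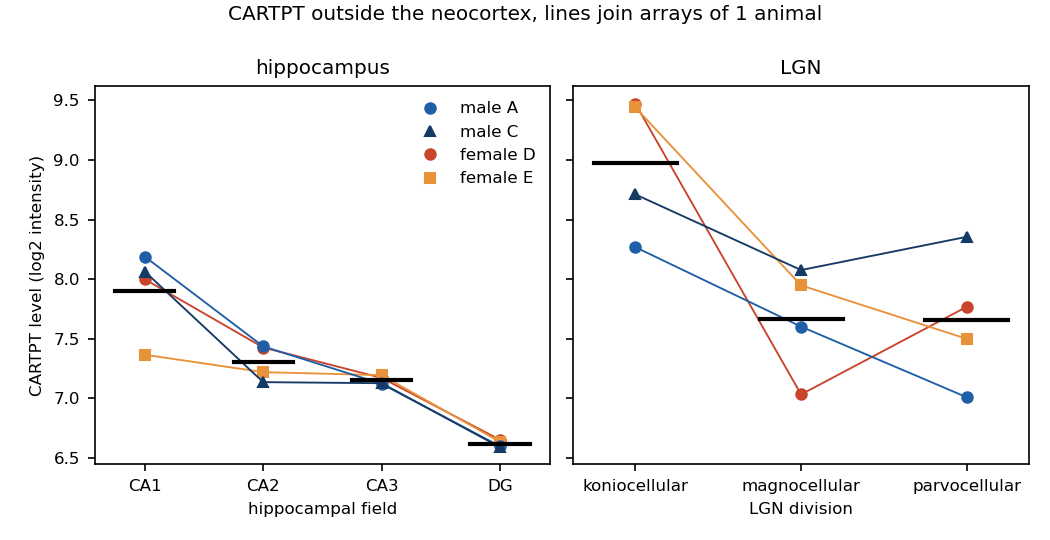
CARTPT in the hippocampal fields and the LGN divisions. The vertical axis is the level (log2 intensity), lines join the arrays of 1 animal and black bars are means. The level falls from CA1 (mean 7.90) to DG (6.62), and the koniocellular arrays (mean 8.97) lie above the other divisions of the same animal in 4 of 4 animals.

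Averaged over all divisions, CARTPT was highest in the LGN. Over the region groups that male A, male C, female D and female E all have, the LGN stood at 8.10, the hippocampus at 7.24 and the neocortex at 6.23. The 29 cortical groups of this mean are layers of V1, V2, TE, S1, A1 and M1, so ACG, OFC, DLPFC and MT have no part in it. V1 gives 8 of these groups and V2 gives 5, so the 7 groups below 5 all enter the neocortical mean. A1 enters without layers 4 and 5, and M1 without layer 2. The structures differed (range 1.86, adjusted p = 9.07e-07, moderated F of limma; 18.3% of genes called). The LGN exceeded the mean of the other 2 structures by 1.36 ± 0.13 (adjusted p = 1.47e-06, limma, 4 of 4 animals), beside 4.7% of genes called higher. The neocortex was below them (-1.44 ± 0.13, adjusted p = 2.37e-06, beside 1.32% called lower), and the hippocampus was not called (0.08 ± 0.13, adjusted p = 0.617). Within the wide control set, where the shared cortical groups are the 5 layers of V2, the LGN difference was 1.53 ± 0.14 (adjusted p = 8.23e-07, limma). Layers 4, 5 and 6 of V2 averaged 3.46, 4.86 and 5.47.

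Females and males did not differ at the threshold. The mean over the 36 groups that the 4 animals share was 6.45 in females D and E and 6.55 in males A and C (female minus male -0.10 ± 0.14, adjusted p = 0.875, limma). With 2 animals against 2, limma called 0 of 10289 genes by sex, and 725 (7.05%) had an unadjusted p under 0.05.

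Other neuropeptide precursors shared parts of the CARTPT pattern. Of 26 listed precursors, 14 were measured. In layer 2 of the areas with layers 2 to 6, 2 of 12 tested were higher, VIP (1.83 ± 0.08) and TAC3 (1.34 ± 0.05), both peptides of inhibitory interneurons, and 0 were lower (median -0.01, beside 1.24% of all genes called higher). VIP, PTHLH and TAC3 rose in layer 2 of ACG by 1.61, 1.31 and 1.18, where CARTPT was not called, so 3 of 11 tested precursors were higher there, beside 0.942% of genes. In V1, 4 of 10 rose with CARTPT in layer 2, VIP (2.29), TAC3 (1.75), PTHLH (1.27) and NPY (1.24), beside 1.24% of all genes.

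From layer 3 to layer 4, NPY fell as CARTPT did (layer 3 minus layer 4 1.32 ± 0.16), and GRP, gastrin-releasing peptide, rose (-1.27 ± 0.15), 1 of 12 tested each way, beside 0.553% and 0.417% of genes. In V1 GRP (-1.59 ± 0.14) and NPY (-1.41 ± 0.19) were lower than in the other areas, as CARTPT was, 2 of 11 tested, beside 1.06% of all genes. Between CA1 and DG, NPY (1.22 ± 0.32) and VIP (1.19 ± 0.40) were higher in CA1 as CARTPT was, whereas GRP was lower there (-6.95 ± 0.16), 2 and 1 of 11 tested, beside 4.82% and 6.37% of all genes. In the LGN divisions 0 of 9 tested precursors were called in either koniocellular contrast, with 3 of 9 higher in each at an unadjusted p under 0.05. The count of 0 is near the share over all genes, 0.135% higher against the magnocellular and 0.0867% against the parvocellular layers. Against the parvocellular layers 1 was called without male C. In the LGN as a whole 4 of 11 were lower than in the other structures, VIP (-4.61), GRP (-2.06), PNOC (-1.35) and PTHLH (-1.03), beside 6.51% of genes, and CARTPT was higher.

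Most genes of the machinery that makes and stores the peptide, like most of all genes tested, were not called in the contrasts named here. Of 20 listed genes of prohormone processing and dense-core granules, 13 were measured. In layer 2 of the areas with layers 2 to 6, 0 of 12 tested were higher and 1 was lower, CADPS2, a priming factor of dense-core granules (-1.28 ± 0.06, median of the list 0.08, beside 1.45% of genes called lower). CADPS2 was also lower in layer 2 of ACG (-1.51 ± 0.19, beside 1.1% of genes) and of OFC (-1.75 ± 0.13, beside 1.73%). Between CA1 and DG, 3 of 12 were higher in CA1 with CARTPT: CADPS2 (3.59 ± 0.20), VGF (2.85 ± 0.15) and SCG2 (1.68 ± 0.16), VGF and SCG2 being granins, the proteins that fill the granules, beside 4.82% of all genes. In the LGN as a whole SCG2 (1.56) and PCSK1N, an inhibitor of the convertase PCSK1 (1.05), were higher, and CADPS2 (-5.41) and QPCT (-1.07) were lower, 2 of 12 tested each way, beside 4.7% and 6.51% of all genes. In the koniocellular contrasts 0 of 12 were called (1 higher and 3 lower against the magnocellular and 1 and 2 against the parvocellular layers at an unadjusted p under 0.05), and 1 was called against the parvocellular layers without male A. Of all genes, 0.135% were called higher and 0.0771% lower against the magnocellular layers, and 0.0867% higher against the parvocellular layers. The count of 0 is near these shares.

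Most genes of cyclic AMP and CREB signalling, like most of all genes tested, were not called in the contrasts named here. Of 24 listed genes, 23 were measured. In layer 2 of the areas with layers 2 to 6, and in the drop from layer 3 to layer 4, 0 of 23 were called (7 higher and 4 lower, and 7 higher and 5 lower, at an unadjusted p under 0.05). Of all genes, 1.24% and 1.45% were called higher and lower in layer 2, and 0.553% and 0.417% in layer 3 against layer 4. The count of 0 is near these shares. An adjusted p under 0.05 alone was reached by 44.6% and 29.4% of all genes. In V1, CREM, a cyclic AMP responsive transcription factor, was lower than in the other areas (-1.85 ± 0.10), 1 of 22 tested, beside 1.06% of all genes. Between CA1 and DG, 4 of 23 were higher in CA1, the phosphodiesterases PDE4B (3.23 ± 0.10) and PDE10A (1.21 ± 0.22), the adenylyl cyclase ADCY8 (1.94 ± 0.14) and CREM (1.05 ± 0.13), and 1 was lower, ATF1 (-1.32 ± 0.16), where 4.82% and 6.37% of all genes were called higher and lower. The other 18 were not called, and the median of the list was 0.01, as over all genes tested (0.01).

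Upper layer genes were called in layer 2 both where CARTPT was high and where it was not. In layer 2 of the areas with layers 2 to 6, 7 of 11 tested were higher (median 2.07), led by CUX2 (3.31 ± 0.08), PCDH8 (3.29), FREM3 (2.74) and C1QL2 (2.27), beside 1.24% of all genes. In layer 2 of ACG, where CARTPT was not called, 6 of 12 were higher, among them CUX2 (3.40 ± 0.12) and FREM3 (2.11 ± 0.19), beside 0.942% of all genes (median of the list 1.01). In layer 2 of M1, where CARTPT was not called either (0.29), 6 of 11 were higher (median 1.83), led by CUX2 (4.00 ± 0.17) and FREM3 (3.76 ± 0.64), beside 1.5% of all genes. In TE, 0 of 11 upper layer genes were called, beside 0.0583% of all genes called higher, with 6 higher at an unadjusted p under 0.05. Between CA1 and DG, 4 of 9 were lower in CA1 and 1 was higher, beside 6.37% and 4.82% of all genes.

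A search was made for the genes whose group means run most like those of CARTPT. It took the 1443 genes whose mean exceeded the median of all probe sets and whose 57 group means had an SD of at least 0.5, and correlations are given as descriptions, since the groups share animals and arrays. The highest was NECAB2, a neuronal calcium-binding protein, with a Pearson correlation of 0.79 (Spearman 0.82). TMEM47, a membrane protein of the claudin family, followed at 0.78 (0.84), then PCYOX1L at 0.76 (0.78), EML1, a microtubule-associated protein, at 0.76 (0.78), ITGA6, an integrin subunit that binds laminin, at 0.75 (0.74) and CYP46A1, the enzyme that clears cholesterol from neurons, at 0.73 (0.73). The lowest were RAB17, a small GTPase, at -0.66 (-0.63), UST, a sulfotransferase, at -0.66 (-0.60), and KCNK10, a potassium channel, at -0.65 (-0.67).

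The likeness had different shapes. NECAB2 was highest in the parvocellular LGN (9.81) and TMEM47 in the magnocellular LGN (12.4), whereas PCYOX1L (9.27) and ITGA6 (8.26) were highest in layer 2 of TE, as CARTPT was. TMEM47 (9.44), EML1 (5.93) and ITGA6 (5.39) were lowest in layer 4 of V2, also as CARTPT was. Over the 50 cortical groups alone CYP46A1 came first, at 0.85, and NECAB2 was at 0.80. CYP46A1 lay between 9.48 and 9.67 in the LGN divisions, against 11.1 in layer 2 of TE. Computed within single animals, the correlation of NECAB2 with CARTPT lay between 0.72 and 0.79 in 4 animals.

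**Figure D5:**
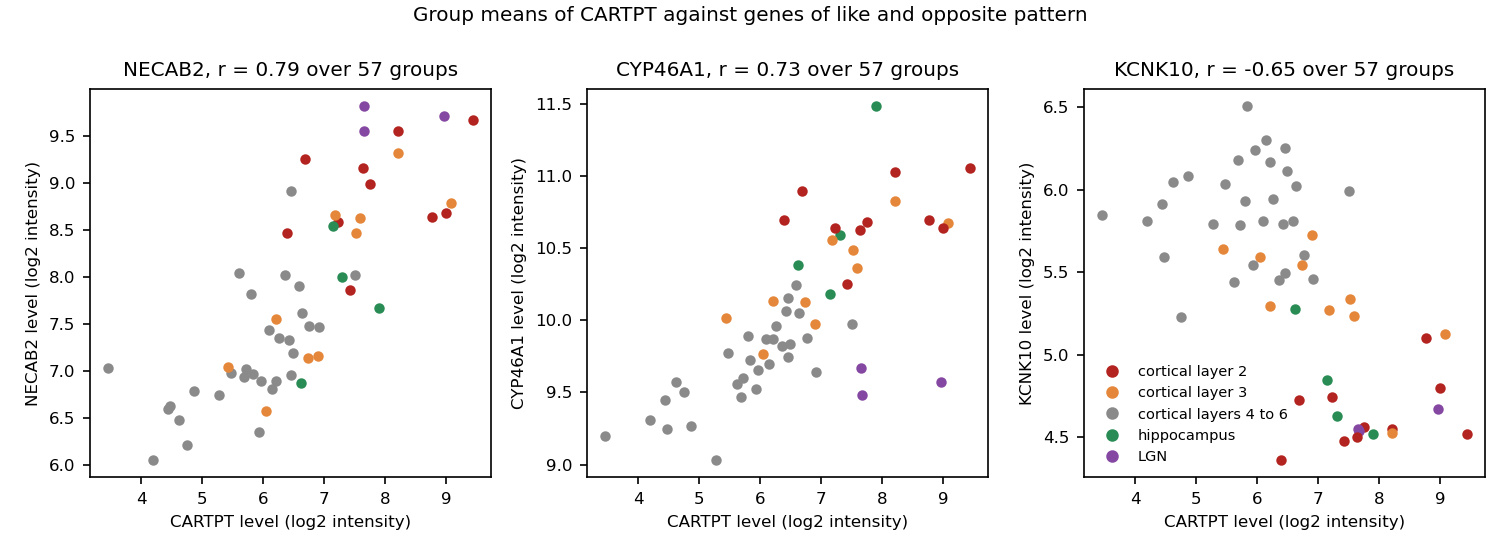
Group means of CARTPT (horizontal axis) against those of NECAB2, CYP46A1 and KCNK10 (vertical axes), all as log2 intensity, 1 point per group over 57 groups. NECAB2 rises with CARTPT in cortex and LGN, the 3 LGN points of CYP46A1 lie below its cortical run, and KCNK10 falls as CARTPT rises.

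Layer explained more of CARTPT than of most genes. Over the 158 arrays of layers 2, 3, 5 and 6, layer took 37.8% of the sum of squares of CARTPT against a median of 6.17% over 10316 genes, area 23.6% against 18.9%, and area with layer 22.2% against 13.3%. Animal took 3.14% against 5.29%, and 13.3% was left as residual against 45.5%. These shares include layer 2 and TE, for which the gene was chosen, and are a description.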

How the data were processed

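Per the labels' protocols, total RNA of each dissected piece was amplified in 2 cycles from 5 ng. The deposited values are log10 normalized intensities. Per the file headers, the authors ran RMA within each amplification batch and then set each probe set across batches on shared whole brain control samples, in Matlab 2007b. Which tissue array was in which batch is not given in the sources used here. Values were multiplied by the log2 of 10. The columns of tissue arrays and of 27 control arrays were used, with 0 left out. Of 52865 probe sets, 24969 had 1 gene symbol, 361 several and 27535 none. The probe set with the highest mean was kept per gene, and CARTPT has 1.

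Tests were made with limma 3.58.1 in R 4.3.3, with animal as a block and Benjamini-Hochberg adjustment over all genes with a mean above that of the median probe set. The labels name the animal, which pairs the arrays. Residuals of 2 arrays of 1 animal had a median correlation of 0.17 over 5367 pairs, against -0.05 over 19500 pairs of different animals. The sexes were compared over 4 animals without the block. Per area or layer, an animal's arrays were averaged first. The pieces of an animal are not separate animals. With the block, p-values rest on how differences between pieces varied over these few animals, array noise included, and not on the spread of the animals' levels. For the sexes, without the block, they rest on the spread between the 4 animals. The fits were tested on simulated data. Array medians ran from 4.72 to 5.00, no arrays were duplicates (highest correlation 0.994), and the number of arrays limits the precision.

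The member and the lists were chosen with earlier results of these data known. The likeness search named the 6 genes with the highest and the 3 with the lowest Pearson correlation, passing over LOC symbols. From each list up to 4 called members with the largest changes were named per test. GPR160, the arrays that stood apart, the contrast of layer 2 with layer 3 alone, the areas without layer 2 and the layer 2 excess among ACG, OFC, M1 and V1 were looked at after the values were seen. The planned test of that excess over 9 areas holds values of the choice and is given as values only.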

Additional observations from a re-analysis of the deposited data

Results flagged for a closer look

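In 2 of the 54 groups with 4 arrays, 1 array stood apart from the others by the Dixon gap, where chance gives about 1 group in 20. In layer 6 of OFC female D read 5.57, against 6.61 in male C, 6.71 in male B and 6.79 in female E. In layer 5 of V2 male A read 3.42, against 5.17 in male C, 5.40 in female D and 5.45 in female E. Without these 2 arrays the tests of the areas, of layers 3 to 6 and of the layer 2 excess kept their call.

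Among ACG, OFC, M1 and V1, the layer 2 excess of CARTPT differed between areas by a test of the difference itself in 2 areas. Against the other areas it was -1.77 in ACG and 2.07 in V1.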

How the results depend on the processing

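The alternatives changed the filter, the scaling (quantile), the variance model, the animal block, the control set or the animals left out. Of the planned recomputations of the main results, 94 kept their direction and their side of the threshold, 6 lost the call, and 2 values that were not called changed sign, and 17 added ones kept both. These tallies include the layer 2 excess among the 9 areas, with 12 recomputations that kept both and 1 that did not. That excess holds values of the choice, so its part of the tallies is no support. The sign changed for the sexes without female D (0.16, over animals left out -0.31 to 0.16) and for the layer 2 excess in M1 without male A (-0.073, over animals left out -0.073 to 0.63). Without the replicate block the LGN divisions (1.32, adjusted p = 0.145) and the layer 2 excess in OFC (1.04, adjusted p = 0.0811) were no longer called. Leaving out 1 animal at a time ended the call of the LGN divisions without female E (1.25) and that of the layer 2 excess in OFC without male B (0.93), and that excess lay between 0.93 and 1.11 over the animals left out. Within the wide control set the areas other than TE (0.30, adjusted p = 0.469) were not called, and the layer 2 excess had a range of 1.83 among them. Smaller contrasts that were not called changed sign too: magnocellular minus parvocellular (-0.0097 with quantile scaling, and -0.19 to 0.25 over animals left out), the hippocampus against the other structures (-0.083 to 0.18), layer 4B minus 4Ca (-0.40 to 0.58), layer 5 minus layer 6 (-0.35 to 0.023), OFC among the areas of the wide set (-0.019) and MT among the areas without layer 2 (-0.21). Over all alternatives the values ran from 1.19 to 1.47 for the hippocampal fields, 1.19 to 1.64 for the LGN divisions, 1.6 to 2.03 for layers 3 to 6, -0.45 to -0.34 for the layer 2 excess in ACG, 0.93 to 1.17 in OFC and 2.31 to 2.40 in V1, 3.22 to 3.40 for the layers of V1, 2.74 to 2.97 for the excess among ACG, OFC, M1 and V1 and 1.69 to 2.21 for the structures. Genes called among the LGN divisions fell from 41 to 5 without the replicate block and to 19 without female E. For the layer 2 excess among the 9 areas they were 290, and between 67 and 440 with 1 animal left out, 158 within the narrow set and 19 within the wide set. Among ACG, OFC, M1 and V1 they were 185, and between 20 and 223 with 1 animal left out, 46 within the narrow set and 87 without the 2 arrays that stood apart. For the areas other than TE they were 917, and 146 within the wide set. Fewer areas or animals enter these fits by construction, and the cause was otherwise not tested. Another probe set of CARTPT could not be tried, since there is 1. Levels below 4.76, the median of all probe sets, are close to background, which limits the lowest 6 groups.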

Other observations

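In the control arrays, repeat runs of 1 RNA each, CARTPT ran from 6.33 to 7.17 over 15 runs of the whole brain pool, from 6.36 to 7.38 over 9 runs of CA3 and from 6.92 to 7.16 over 3 runs of MT.

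The animals differed in their deviation from the group means. Female D lay 0.34 below them on average (-0.34, with 13 of 52 arrays above the group mean) and male B above them (0.32, 10 of 13). Female E was also above (0.19, 41 of 56), and male A (0.02), male C (0.05) and female F (-0.21, 5 arrays) completed the set.

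Over the arrays of a group, CARTPT had a larger SD than most genes of its level in most groups, and a far smaller one in CA3 and DG. In 45 of 57 groups its SD exceeded the median SD of genes within 0.5 of its level. In DG its SD was 0.03, where those genes had a median of 0.18 and 0.604% of them a smaller SD, and in CA3 it was 0.04 against 0.19, with 1.14% smaller. The 9 repeat runs of 1 CA3 RNA had an SD of 0.29, above that over the animals in CA3. The small SD of these fields therefore cannot be read as little variation between animals. In layer 3 of TE, 99.7% had a smaller SD.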
